A study of Mus musculus with 4 samples.

Results

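RNA polymerase II domains that were listed in the mouse uterus at postnatal day 12 (PD12), and that had no counterpart in the adult uterus, are described here. They came from chromatin immunoprecipitation and sequencing of whole uterus with a rabbit polyclonal antibody to the form of polymerase whose C-terminal repeat is phosphorylated on serine 2, which the labels call POL2. The adult tissue was from females in pseudopregnancy, labelled with days 2.5 and 3.5 on 1 library. FOXA2, a forkhead transcription factor, was profiled at the same stages with a goat polyclonal antibody, so there were 4 groups with 1 library each. The labels name no strain, genotype or number of animals, nor do they say how the days of pseudopregnancy were combined. A member was any interval of the PD12 POL2 list that shared no base with an interval of the adult POL2 list. This gave 2007 of 9972 PD12 domains, out of 35977 intervals in the 4 lists together. The other 7965 PD12 domains are called shared, and the 6758 adult domains without a PD12 counterpart are called adult-only.

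Polymerase that is phosphorylated on serine 2 is the elongating form, found over the bodies of transcribed genes and often beyond their 3′ ends, so its domains can be much wider than the sites of a DNA-binding factor. In the mouse, the uterine glands bud from the luminal epithelium during the postnatal period, while the stroma and the smooth muscle layers differentiate around them. In pseudopregnancy the grown uterus is under the control of progesterone and estrogen. FOXA2 in the uterus is known as a factor of the glandular epithelium, whereas polymerase in whole uterus comes from every cell type present. Fewer cells of a type and less polymerase per cell cannot be told apart in such tissue.

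The lists hold chromosome, start and end, with no height, score or read count. Depth is therefore unknown, and being listed at 1 stage alone describes the lists and does not show absence at the other. With 1 library per group there was no replicate check of any difference, and no p-value is given. Each share below has an exact (Clopper-Pearson) 95% binomial interval, which covers counting error alone, and domains of 1 list are not replicates. Positions are as in the files, whose genome build is not named. The gene table at hand is for GRCm38, and 30 members began beyond the last GRCm38 gene of their chromosome, so that table was not used to place them. Regions are therefore given by position alone, with neither gene, exon or intron nor sequence, and the labelled tissue could not be checked against the marker genes of its cell types.

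PD12-only domains made up 20.1% of the PD12 list (95% interval 19.3 to 20.9), a share that the rule itself fixes. They were narrower than shared domains and had nearly the same spread of widths as adult-only domains. Their median width was 3400 bp (interquartile range 2000 to 5400, full range 400 bp to 32 kb), against 6000 bp (3800 to 9600) for shared PD12 domains. Widths of 10 kb or more were reached by 89 members (4.43%), by 1901 shared PD12 domains (23.9%) and by 357 adult-only domains (5.28%). Because a wider domain meets another list more often by its length, the rule tends to select narrow ones.

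**Figure D1:**
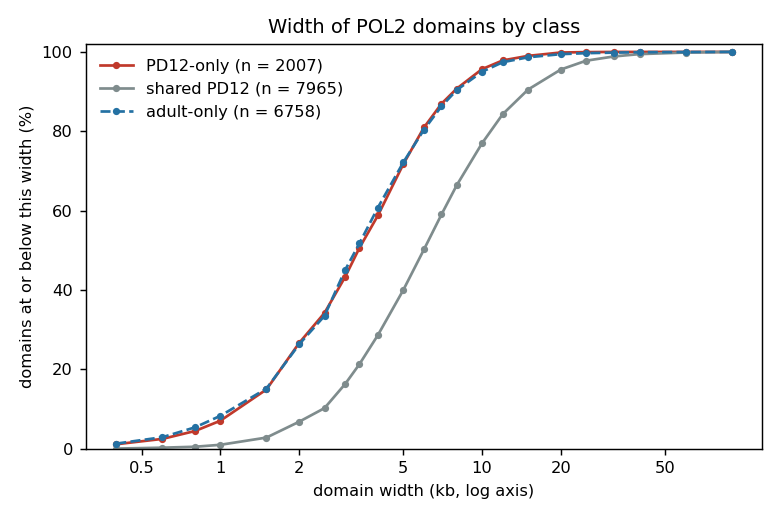
Cumulative share of domains (%) against domain width (kb, log axis) for PD12-only, shared PD12 and adult-only POL2 domains. The PD12-only and adult-only curves run together, with a median of 3400 bp each, and the shared curve lies to the right of both, with a median of 6000 bp.

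In bases, the members held fewer of the bases listed at PD12 alone than the shared domains did. They covered 8.33 Mb, or 11.8% of the bases listed at PD12. A further 11.4 Mb (16.2%) lay in shared domains but outside the adult domains that overlapped them, and 50.7 Mb (72.0%) was covered at both stages. The median shared PD12 domain had 90.9% of its bases covered in the adult, although 828 shared domains had under 50% covered.

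At the border of the rule, 24 members touched an adult domain without sharing a base with it. The 5 widest of these were at chr3:29906400-29916199 (9.8 kb), chr2:27854800-27861599 (6.8 kb), chr9:7956200-7962999 (6.8 kb), chr4:137107400-137113599 (6.2 kb) and chr6:47969200-47974799 (5.6 kb). On the other side of the border, 26 shared PD12 domains had an overlap of 200 bp, the smallest that occurred, since all POL2 domains start on a grid of 200 bp. The widest of those were at chr3:29871600-29886599 (15 kb), chr15:96124600-96135999 (11.4 kb), chr2:93251200-93261799 (10.6 kb), chr7:109128000-109137799 (9.8 kb) and chr2:60069800-60077599 (7.8 kb).

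Over 50% of the members had no other listed POL2 domain within 5 kb, a share that was not computed for the other classes. With a neighbour defined as a domain within 5 kb, 1165 members (58.0%, 55.9 to 60.2) had no neighbour of any class, and 175 (8.72%) had only another PD12-only domain beside them. A further 361 members (18.0%) had both an adult and a shared PD12 domain within 5 kb, 255 (12.7%) had an adult domain without a shared PD12 one, and 51 (2.54%) had a shared PD12 domain without an adult one. An adult domain lay within 5 kb of 616 members in all (30.7%). In the reverse comparison, a PD12 domain lay within 5 kb of 1333 adult-only domains (19.7%), and the PD12 list is the shorter. Adult domains within 5 kb lay on 1 side of 530 members (26.4%) and on both sides of 86 (4.29%). Those with an adult domain on both sides had a median width of 3600 bp, close to the 3400 bp of members with none nearby.

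The gap from a member to the nearest adult domain had a median of 13.8 kb, with quartiles of 3.8 and 49.1 kb. Adult-only domains were farther from the nearest PD12 domain, at a median of 24 kb (7.2 to 74.2), and the adult list, with 14818 domains, offers more neighbours than the PD12 list. An adult domain lay within 50 kb of 1517 members (75.6%), and 301 members (15.0%, 13.5 to 16.6) were over 100 kb from any. A distance of over 500 kb was found for 53 (2.64%) and one of over 1000 kb for 16. The nearest other member was typically much farther, at a median of 121.6 kb (23.8 to 451.3). There are only 2007 members, against 14818 adult domains, so this larger gap is no measure of how members are spread.

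**Figure D2:**
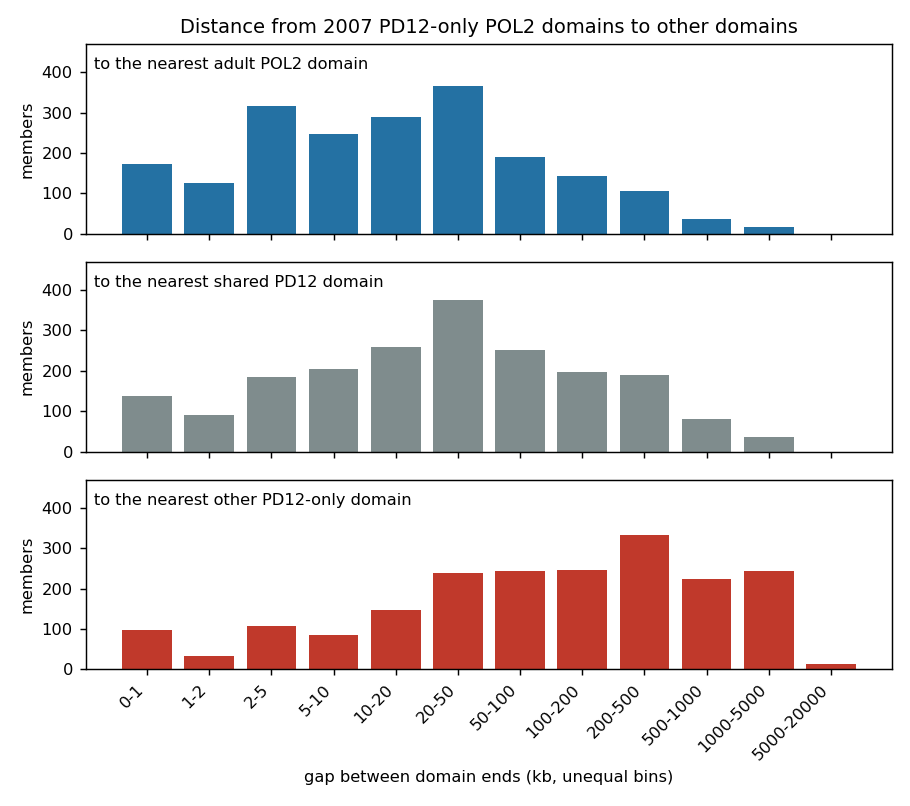
Number of PD12-only domains (y axis) by the gap in kb to the nearest adult POL2 domain, shared PD12 domain and other PD12-only domain, in unequal bins. The bin of 20 to 50 kb holds the most members in the upper and middle panels. Distances to other members, which are fewer than adult or shared domains, reach further, with a median of 121.6 kb.

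Listed POL2 domains covered less of the surroundings of members than of those of shared domains. Within 50 kb on each side of a member, adult domains covered a mean of 11.4% of the bases and PD12 domains 11.4% as well. Around shared PD12 domains these means were 21.0% and 14.8%, and around adult-only domains they were 16.3% and 9.03%. The adult list covers more bases in all (95.2 Mb, against 70.4 Mb at PD12), and its excess was present around shared and adult-only domains but not around members. No adult domain at all was listed in these flanks for 493 members (24.6%), against 287 shared PD12 domains (3.60%). An adult domain that overlaps a shared domain can reach past its ends into the flanks. The adult values around shared domains are therefore partly set by the rule. No other PD12 domain was listed in the flanks of 544 members (27.1%) and 1638 shared PD12 domains (20.6%). For adult-only domains, 2234 (33.1%) had no PD12 domain in the flanks. The rule used both lists, so these values are a description.

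**Figure D3:**
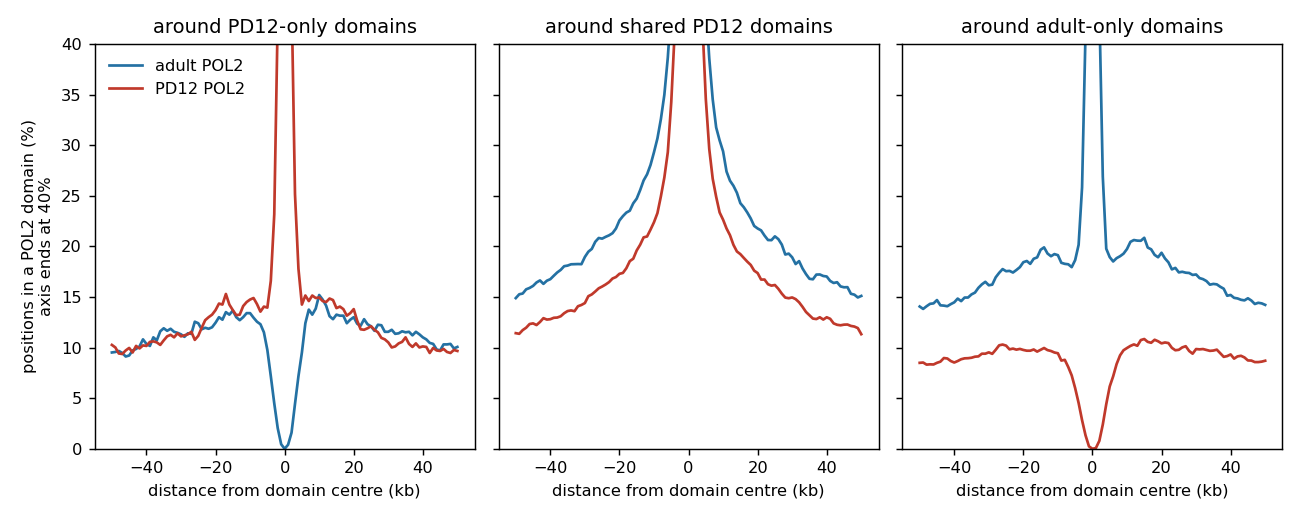
Share of positions (%) that lie in an adult (blue) or PD12 (red) POL2 domain, by distance in kb from the centre of PD12-only, shared PD12 and adult-only domains, with the y axis ending at 40%. The fall of one list to 0 at the centre is set by the rule. Beyond it the curves lie close to each other around PD12-only domains, and the adult curve is the higher around the other classes.

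Members were found on all 20 chromosomes listed. Their share of PD12 domains had a median of 20.3% over chromosomes and was lowest on chromosome 19, with 41 of 340 domains (12.1%, 8.79 to 16.0). It was highest on the X chromosome, with 46 of 181 (25.4%, 19.2 to 32.4), followed by chromosome 15 with 108 of 440 (24.5%, 20.6 to 28.8) and chromosome 9 with 130 of 536 (24.3%, 20.7 to 28.1). The intervals of these 3 overlapped each other, and none of them overlapped that of chromosome 19. These chromosomes were picked as the extremes after the shares were seen, so their intervals are no test of a difference. On chromosome 15 the share of adult domains that were adult-only was 39.2%, lower than on any other chromosome but 7 (36.1%), and on the X it was 54.1%, the highest of the 20.

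The widest member lay at chr19:56978600-57010599. It was 32 kb wide, 96 kb from the nearest adult domain and 111 kb from the nearest shared PD12 domain. An adult FOXA2 interval, at chr19:56989474-56990095, lay inside it. The next were at chr10:5716000-5736999 (21 kb wide, with the nearest adult domain 78.4 kb away), chr11:59562800-59583799 (21 kb, 0.4 kb away) and chr6:83346000-83365999 (20 kb, 2.4 kb away). The 20 widest members were all at least 15.2 kb wide, and they fell into different settings. An adult domain lay within 5 kb of 7 of them and over 50 kb from another 7.

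Among the widest members far from adult polymerase were chr14:34735200-34753799 (18.6 kb wide, 112.6 kb from an adult domain), chr3:37296000-37313599 (17.6 kb, 82.4 kb), chr2:33091600-33108399 (16.8 kb, 103.2 kb), chr10:85761200-85777399 (16.2 kb, 343.2 kb) and chr14:69646600-69661999 (15.4 kb, 240.4 kb). Those next to an adult domain included chr18:37965000-37982999 (18 kb wide, 2.2 kb away), chr12:81339400-81357199 (17.8 kb, 1.4 kb), chr9:7976000-7993599 (17.6 kb, 4.2 kb), chr6:89270400-89287399 (17 kb, 2.8 kb) and chr17:56570400-56585999 (15.6 kb, 5 kb). Between these settings lay chr6:101135200-101153199 (18 kb wide, 31.4 kb away), chr1:36860400-36877999 (17.6 kb, 11.4 kb), chr8:77734600-77751999 (17.4 kb, 41 kb), chr8:64223000-64239199 (16.2 kb, 11 kb), chr19:9938000-9953199 (15.2 kb, 35.2 kb) and chr7:137391200-137406399 (15.2 kb, 15.6 kb). Of the 20, the domain on chromosome 9 and the widest one, on chromosome 19, held an adult FOXA2 interval, and none held a PD12 one.

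Neighbouring members were joined into stretches where the gap was at most 5 kb and no adult domain lay between. Of the 1882 stretches formed, 1773 were a single domain, 93 joined 2 domains and 16 joined 3. The stretches that covered most bases, after the widest single domain, were at chr2:93083800-93124199 (3 domains covering 31.6 kb), chr10:5706200-5736999 (2 domains, 30 kb), chr17:46733800-46761599 (2 domains, 27 kb), chr18:37965000-37992199 (2 domains, 26.2 kb) and chr10:85785600-85815199 (2 domains, 25.2 kb). They were followed by chr19:4204800-4228599 (2 domains, 23 kb), chr6:91307200-91329399 (2 domains, 21.4 kb), the 21 kb domain on chromosome 11, and chr1:151712600-151739199 (3 domains, 20.8 kb). The chromosome 1 stretch was 497.8 kb from the nearest adult domain, and the pair on chromosome 10 at 85.8 Mb was 335.6 kb away, whereas the chromosome 17 pair was 2.8 kb away.

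Members were also joined into runs, in which they follow one another with no adult domain between. Without a limit on the gap, 748 members (37.3%) fell into 308 runs of at least 2, and 16 runs held 5 or more. Runs were not counted for another class of domains, so these counts give no measure of clustering. The longest runs by number were chr6:91110000-91361999 and chr2:145171400-145370399, with 7 members each. On chromosome 6 the members were 3.4 to 12 kb wide and covered 53.2 kb of a span of 252 kb, and on chromosome 2 they were 0.8 to 11 kb wide and covered 40 kb of 199 kb. Neither span held a FOXA2 interval of either stage.

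Runs of 6 members were at chr1:151671800-151808999 (53.2 kb covered), chr16:43125600-43411399 (37.4 kb), chr12:70840200-70892799 (33.8 kb), chr15:84880200-85181199 (30.6 kb) and chr1:120753600-120899599 (27 kb). The first of these was the most remote, 428 kb from an adult domain. The run on chromosome 12 was the most compact, with 6 domains in 52.6 kb, and 1 of them held an adult FOXA2 interval. The runs were chosen by their number of members after the values were seen.

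A pair of runs of 5 differed in where FOXA2 lay. At chr6:101099200-101170799, 5 members covered 41.8 kb, and the last of them held FOXA2 intervals of both stages. At chr3:29906400-30398999, 5 members covered 20.2 kb of a span of 492.6 kb with no adult POL2 domain between them, and 13 adult FOXA2 intervals lay in that span. Only 1 of the 13 lay inside a member. In the other runs of 5 to 7 the spans held 0 to 3 adult FOXA2 intervals.

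**Figure D4:**
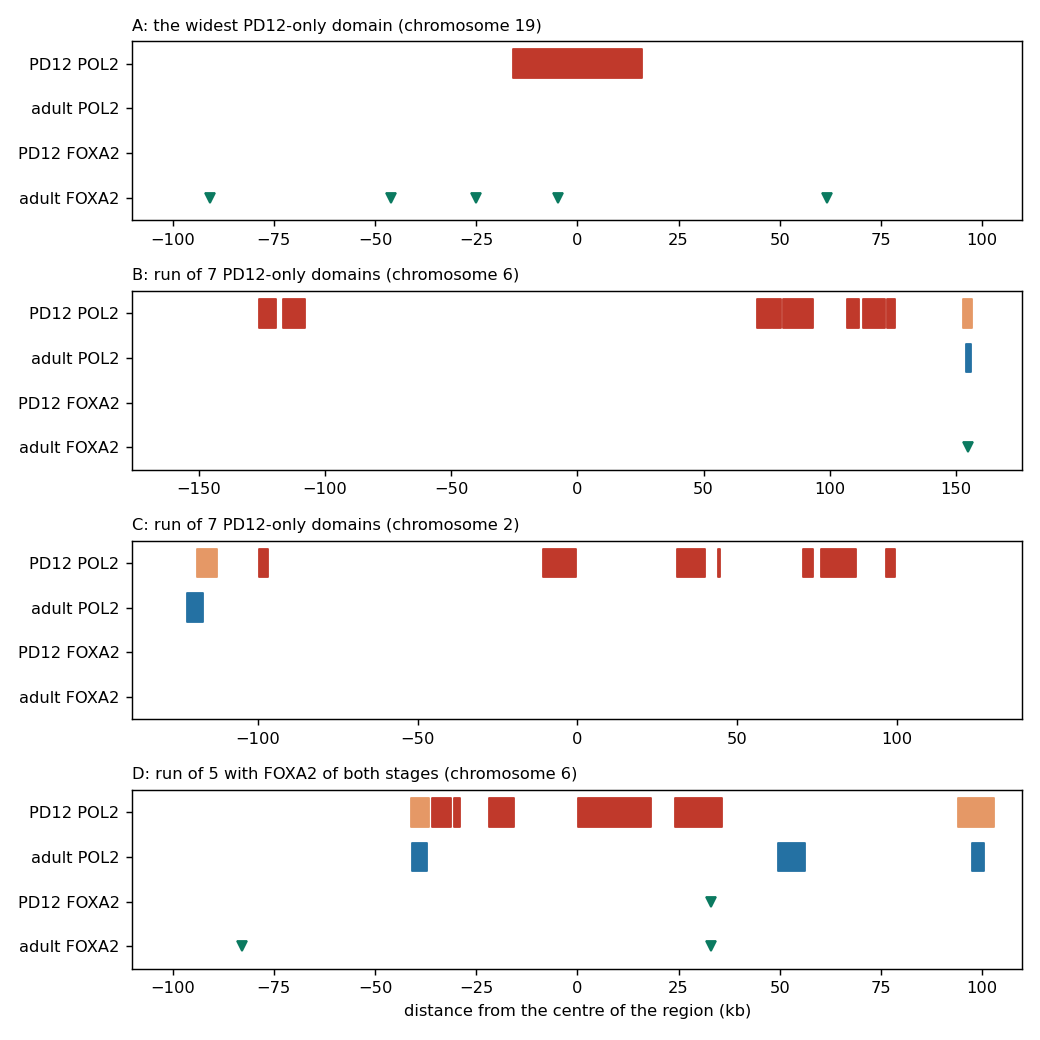
Intervals of the 4 lists around 4 regions, by distance in kb from the centre of each region, to scale. PD12-only domains are red, other PD12 domains orange and adult domains blue, and triangles mark the centres of FOXA2 intervals. A is the widest member (32 kb), B and C are the runs of 7 members on chromosomes 6 and 2, and D is the run of 5 on chromosome 6, whose last domain holds FOXA2 intervals of both stages.

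The number of members also differed between megabases, as that of all POL2 domains does. Of 1834 windows of 1 Mb with any POL2 domain, 839 held no member, 502 held 1 and 61 held 5 or more. The most were 12, both in the window from 145 Mb on chromosome 2 (beside 5 shared PD12 and 2 adult-only domains) and in that from 32 Mb on chromosome 15 (beside 7 shared and 9 adult-only domains). The next, from 21 Mb on chromosome 9, held 10 members beside 21 shared and 8 adult-only domains. Members outnumbered adult-only domains in 28 of the 61 windows, among them those from 151 Mb on chromosome 7 (9 members and 2 adult-only), from 43 Mb on chromosome 16 (8 and 1) and from 117 Mb on chromosome 4 (7 and 1). Over all windows this was so in 215.

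The members most remote from adult polymerase ranged from 0.6 to 9.6 kb in width, where the median of all members was 3400 bp. The farthest, at chr5:81448600-81449199, was 0.6 kb wide and 3610.6 kb from an adult domain. The pair at chrX:78345600-78347999 and chrX:78348800-78351999, 2.4 and 3.2 kb wide, lay 3432.8 and 3436 kb away. Wider remote members were found together on chromosome 3, at chr3:148474600-148480999 (6.4 kb), chr3:148551000-148560599 (9.6 kb) and chr3:148647400-148654799 (7.4 kb), each at least 2001.8 kb from an adult domain. The last of these held 2 adult FOXA2 intervals, at chr3:148650379-148651089 and chr3:148651564-148652580, although no adult polymerase was listed near it.

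The FOXA2 lists were not used to choose the members, and members held FOXA2 less often than other domains did. An adult FOXA2 interval lay in 74 of 2007 members (3.69%, 2.91 to 4.61), in 987 of 7965 shared PD12 domains (12.4%, 11.7 to 13.1) and in 750 of 6758 adult-only domains (11.1%, 10.4 to 11.9). Over all PD12 POL2 domains the share was 10.6%. Neither stage's FOXA2 was listed in 1931 members (96.2%). Here a domain holds an interval when they share at least 1 bp, and the centre lay inside the member for 71 of the 78 adult and 11 of the 12 PD12 FOXA2 intervals concerned. Adult FOXA2 and adult POL2 are from the same stage, and the members were chosen as lacking the latter. Whether that choice bears on the lower share was not tested.

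The lower share was also present among domains of similar width. Domains were set into 5 bins of width, and the member share was below the shared PD12 share in each bin. It was 2.43% (1.30 to 4.12) against 8.29% (6.11 to 10.9) for domains of up to 2000 bp, 2.91% (1.60 to 4.84) against 9.35% (7.73 to 11.2) for 2200 to 3400 bp, and 2.33% (1.21 to 4.03) against 8.51% (7.27 to 9.88) for 3600 to 5400 bp. For 5600 to 10000 bp it was 6.94% (4.62 to 9.94) against 11.9% (10.7 to 13.2), and for wider domains 9.20% (4.05 to 17.3) against 20.1% (18.3 to 22.0). In this last bin shared domains reach 89.4 kb and members 32 kb, and the shared domains no wider than the widest member had a share of 19.4% (17.5 to 21.3). The intervals of members and shared domains did not overlap in any of the 5 bins. With shared PD12 domains weighted to the widths of the members, their share was 9.81%, and the member share was 0.376 times that (0.296 to 0.469, from the interval of the member share alone). Against adult-only domains weighted in the same way (11.1%), it was 0.333 times (0.263 to 0.417).

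Per megabase covered, members held 9.37 adult FOXA2 intervals (exact Poisson 95% limits 7.40 to 11.7), shared PD12 domains 17.8 (16.8 to 18.9) and adult-only domains 27.6 (25.8 to 29.6). With shared PD12 domains again weighted to the widths of the members, the member share was below the shared share on each of the 20 chromosomes. It ranged from 0 of 46 members on the X, where the weighted shared share was 4.48%, to 7.32% of the 41 members on chromosome 19, where that share was 14.3%. A count of 0 among 46 domains says little about the X by itself.

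**Figure D5:**
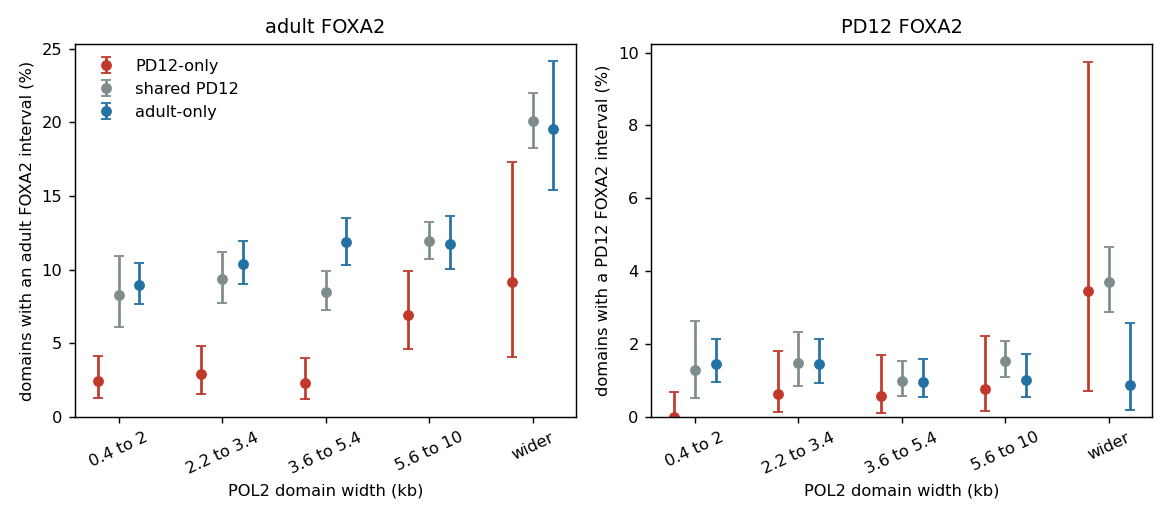
Share of POL2 domains (%) that hold an adult (left) or PD12 (right) FOXA2 interval, by domain width in kb, for PD12-only, shared PD12 and adult-only domains, with exact 95% binomial intervals. On the left the PD12-only points lie below both other classes in each bin, and on the right the intervals overlap in most bins because few domains hold PD12 FOXA2.

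Within the members, the share was compared between those near to and far from adult polymerase. It was 3.60% (1.93 to 6.08) for the 361 members beside both an adult and a shared PD12 domain, 3.53% (1.63 to 6.59) for those beside an adult domain without a shared one, and 3.86% (2.83 to 5.13) for the 1165 members with no neighbour within 5 kb. Overlap of these intervals is no evidence that the shares are equal. Of the 74 members with adult FOXA2, 18 were over 50 kb from any adult POL2 domain. The gap from a domain to its nearest adult FOXA2 interval was also larger for members. Its median was 52.4 kb over members, 35.0 kb over shared PD12 domains and 41.5 kb over adult-only domains. An adult FOXA2 interval lay within 50 kb of 48.9% (46.7 to 51.1) of members, 59.3% (58.3 to 60.4) of shared PD12 domains and 54.9% (53.7 to 56.1) of adult-only domains. PD12 FOXA2 intervals did not follow this order, with 6.83% (5.76 to 8.02) of members, 8.61% (8.01 to 9.25) of shared PD12 domains and 6.44% (5.86 to 7.05) of adult-only domains within 50 kb of one.

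The adult FOXA2 intervals in members were narrower than those in other domains. The 78 in members had a median width of 745.5 bp (interquartile range 628.75 to 865.75), against 898 bp (708.5 to 1204) in shared PD12 domains, 871.5 bp in adult-only domains and 685 bp over the whole adult FOXA2 list. When the comparison was limited to the 50% narrowest adult FOXA2 intervals, 1.35% of members and 2.02% of shared domains of the same widths held one, a ratio of 0.665 (0.439 to 0.964). The ratio for narrow FOXA2 intervals was thus nearer to 1 than that for the whole list, and the difference between these ratios was not tested.

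PD12 FOXA2 intervals lay in 12 members (0.598%, 0.309 to 1.04), in 150 shared PD12 domains (1.88%, 1.60 to 2.21) and in 83 adult-only domains (1.23%, 0.979 to 1.52). Over all PD12 POL2 domains the share was 1.62%. At the widths of the members, shared PD12 domains had a share of 1.41%, and the member share was 0.425 times that (0.220 to 0.741). Bin by bin the intervals of members and shared PD12 domains overlapped: members held PD12 FOXA2 in 0 of 535 domains of up to 2000 bp (upper limit 0.687%) and in 3 domains in each of the 4 wider bins. In the narrowest bin the member interval lay below that of adult-only domains (26 of 1779, 1.46%, 0.957 to 2.13). The widest bin did not follow this order. Its member share was 3.45% (3 of 87, 0.717 to 9.75), near the 3.71% of shared PD12 domains. Adult-only domains there had 0.888% (3 of 338, 0.183 to 2.57), and the intervals overlap. In the bins between, member shares were 0.624%, 0.583% and 0.771%. Shared PD12 domains had 1.47%, 0.981% and 1.54%, and adult-only domains 1.45%, 0.977% and 1.01%.

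The PD12 FOXA2 intervals that overlapped members were mostly sites also listed in the adult, as were those of the whole PD12 FOXA2 list. Of the 12, 10 (83.3%, 51.6 to 97.9) overlapped an adult FOXA2 interval, against 72.1% of the whole PD12 FOXA2 list and 65.4% (57.3 to 72.9) of those in shared PD12 domains, and the intervals overlap. At these 10 sites FOXA2 was listed at both stages and a polymerase domain that overlapped it at PD12 alone. Counted from the adult list, the same 10 sites were 12.8% (6.32 to 22.3) of the 78 adult FOXA2 intervals in members. The share listed at both stages was 5.65% of the whole adult FOXA2 list and 9.21% (7.58 to 11.1) in shared PD12 domains.

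The members that overlapped FOXA2 of both stages were at chr1:90998800-91005399 (6.6 kb wide, 46.2 kb from an adult POL2 domain), chr2:33074200-33085599 (11.4 kb, 85.8 kb), chr4:129844800-129846999 (2.2 kb, 37.6 kb), chr6:101159200-101170799 (11.6 kb, 13.8 kb) and chr7:91557600-91561599 (4 kb, 189.8 kb). The others were at chr7:119966000-119970199 (4.2 kb, 80.8 kb), chr11:105037000-105044599 (7.6 kb, 31 kb), chr12:106011000-106013399 (2.4 kb, 80.6 kb, with FOXA2 centres just outside its end), chr18:15201400-15204199 (2.8 kb, 74.6 kb) and chr18:70784000-70790999 (7 kb, 2.8 kb). All but the last were over 10 kb from adult polymerase. The second of those on chromosome 7, 4.2 kb wide, was the single one of them with 2 adult FOXA2 intervals. On chromosome 2 the FOXA2 interval, at chr2:33079456-33079764, lay near the middle of its domain, and the 16.8 kb member named above began 6 kb further on.

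In 2 members FOXA2 and polymerase were both listed at PD12 alone. The first was chr17:26551200-26565799, a domain of 14.6 kb with FOXA2 at chr17:26551902-26552159, near one end. It lay 17.6 kb from an adult POL2 domain and 44.9 kb from an adult FOXA2 interval. The second was chr4:92999600-93003999, a domain of 4.4 kb with FOXA2 at chr4:93001633-93001951, near its middle. It lay 1219 kb from an adult POL2 domain, and no adult FOXA2 interval was nearer than that distance.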

How the data were processed

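The series holds 4 libraries of whole mouse uterus, with 1 library for each antibody and stage. The deposited lists give chromosome, start and end of intervals called by the authors, per the file headers, and carry no height or count. BWA is named in the submitters' processing notes without a version. The sources used here name no peak caller, threshold or genome build and do not say whether input was used. Depth is unknown for all libraries.

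Positions were taken as inclusive. An overlap of 1 bp or more made a domain shared. Gaps were measured between ends. Width bins ended at 2000, 3400, 5400 and 10000 bp. Weighted shares are shared-domain shares in each bin, averaged with the members' bin counts. Overlaps were tested on simulated lists with known answers. Python 3.11.15, numpy 2.4.6, pandas 2.3.3 and scipy 1.17.1 were used.

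The regions named are the 20 widest members, the 10 stretches with most bases, members with PD12 FOXA2 and 5 domains on each side of the overlap rule. The comparison within width bins was planned. The bin limits, the weighted ratio, runs, windows, the chromosomes singled out and the most remote members were chosen after values were seen. The members and lists were chosen with earlier results of these data known. The planned gene and gene list counts were not run, since no annotation of the files' build was used here.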

Additional observations from a re-analysis of the deposited data

How the results depend on the processing

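Of 32 alternatives tried on 7 results, 16 gave a value inside the 95% interval of the one reported and 16 gave one outside it. A direction exists only for the 2 FOXA2 ratios, which were below 1 in all 16 of their alternatives. The PD12-only share, 20.1%, was 28.4% when under 50% of a domain covered in the adult counted as PD12-only, 18.4% and 13.9% with no adult domain within 1 or 5 kb, 31.3% against the adult list reduced to its widest domains, and 11.0% in domains of at least 5 kb. With domains joined across gaps of up to 5 kb it was 19.4%. Members beside a shared PD12 domain, 20.5%, were 11.4% within 2 kb and 30.7% within 10 kb, and members beside an adult domain, 30.7%, were 14.9% and 43.0%. FOXA2 within 5 kb, in place of overlap, was present for 1.10% (PD12) and 9.57% (adult) of members, and adult FOXA2 overlapped 6.23% of members of at least 5 kb.

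The following alternatives were chosen after the data were seen. Relative to shared domains of equal width, the adult FOXA2 ratio of 0.376 was 0.597 with FOXA2 within 5 kb, 0.665 for the 50% narrowest FOXA2 intervals and 0.506 in domains of at least 5 kb. In width bins of 1 kb it was 0.377. The PD12 FOXA2 ratio of 0.425 was 0.881 (0.324 to 1.91) for the 50% narrowest FOXA2 intervals, resting on 6 members, and 0.584 (0.215 to 1.26) in domains of at least 5 kb; both intervals include 1. The cause of these changes was not tested.

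No paired analysis was possible because there is a single library per group, with no second one to pair. The alternatives for genes and gene lists were not run. Unknown depth, threshold and cell mix limit every count of domains listed at 1 stage.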
